A study of Physcomitrium patens with 20 samples.

Results

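The genes described are the 1234 rows whose identifiers begin with Pp3c16_, read as the genes of chromosome 16 of the moss Physcomitrium patens, out of 31967 genes (3.86%). They were taken in the order of the last number of the identifier, which runs from 10 to 26095. The chromosome was selected on the measured levels of its genes, which stand higher as a whole in 1 genotype, the double mutant cmt/dnmt3b. Every value for that genotype on this chromosome is therefore a description without a test. The convention that the identifier gives chromosome and order was not checked against an annotation, and the sources used here pair none of these identifiers with a gene name or product. Genes are named by identifier only.

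The study sequenced polyadenylated RNA of 7-day protonema, the filamentous young tissue of the moss, cultivar Grandsen in the labels' spelling. Wild type (wt) had 3 libraries. The single mutants were cmt and dnmt3b (3 libraries each) and met (2 libraries). The mutant drm1drm2, written drm12 here, and the double mutants met/dnmt3b and cmt/dnmt3b had 3 each. The labels give no alleles, number of lines or separate cultures, so a p-value covers only how far libraries of 1 label differ, which can be technical spread. Batch 1 of the labels held 11 libraries: replicates 1 and 2 of wt, drm12, cmt and met, and all of met/dnmt3b. Batch 2 held the other 9: replicate 3 of wt, drm12 and cmt, and all of dnmt3b and cmt/dnmt3b.

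Plants methylate cytosine in several sequence contexts with different enzymes. MET, a relative of animal DNMT1, copies CG methylation after replication. CMT, a chromomethylase, acts on CHG sites (H is any base but G), and in this moss DNMT3b places most CHH methylation in heterochromatin. DRM proteins are the enzymes that small RNA guides in flowering plants. These marks are best known for silencing transposable elements and genes close to them.

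Counts in gene rows ranged from 14221016 (wt replicate 3) to 21683973 (cmt replicate 3) per library. Levels are CPM, the counts of a gene per 1000000 gene counts of the library, not divided by transcript length. Of the 1234 chromosome 16 genes, 201 (16.3%) had 0 counts in all 20 libraries, against 19.3% of genes elsewhere, and 1033 had at least 1 count. A mean of at least 2 CPM was reached by 692, of which 22 reached it only with the cmt/dnmt3b libraries. The other 542 fell below it. Identifiers that do not end in 0 were seldom expressed: 14 of 120 reached 2 CPM, against 678 of 1114 that end in 0. Library wt replicate 3 stood apart on another chromosome, with a median relative level of 0.91 (log2) on chromosome 19. On chromosome 16 it lay with the other wt libraries. The genes mutated in each line were not paired with identifiers in the sources used here, so their own levels were not checked.

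Chromosome 16 held nearly the same part of all gene counts in 17 libraries and 1.82 times as much in the 3 of cmt/dnmt3b. Its share was 3.75, 3.63 and 3.71% in the wt libraries and 6.91, 6.86 and 7.00% in those of cmt/dnmt3b. Group means were 3.70% ± 0.0598 in wt (SD, n = 3), 3.78% ± 0.0844 in drm12 (n = 3), 3.83% ± 0.0556 in met (n = 2) and 3.79% ± 0.0257 in cmt (n = 3). They were 3.85% ± 0.0572 in dnmt3b, 3.89% ± 0.0512 in met/dnmt3b and 6.92% ± 0.0748 in cmt/dnmt3b (n = 3 each). The 17 other libraries lay between 3.63 and 3.95%, so the groups did not overlap. The ratio of 1.82 is to the mean of the 17, and the ratio to the 6 other libraries of batch 2 was 1.81. In bulk RNA, fewer cells of a type and less RNA per cell cannot be told apart, and a share of counts shows a level relative to other genes only.

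A gene-by-gene measure gave the same picture. The median relative level takes the log2 of CPM plus 0.5 for each of the 692 genes, less the median of that gene over the 20 libraries and the median of the library over all genes. It was 0.8172, 0.8353 and 0.8697 in the 3 cmt/dnmt3b libraries, a mean of 0.84 ± 0.027 (SD, n = 3) or a factor of 1.79. In the other 17 libraries it lay between -0.0892 and -0.0185. The means were -0.0394 in wt, -0.0545 in drm12, -0.0306 in met, -0.0346 in cmt, -0.052 in dnmt3b and -0.0488 in met/dnmt3b. The 5 mutant means lay on both sides of wt, and the SD among replicates reached 0.0322. With batch 2 libraries alone, cmt/dnmt3b stood at 0.766, wt at -0.145, dnmt3b at -0.147, drm12 at -0.072 and cmt at -0.071.

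**Figure D1:**
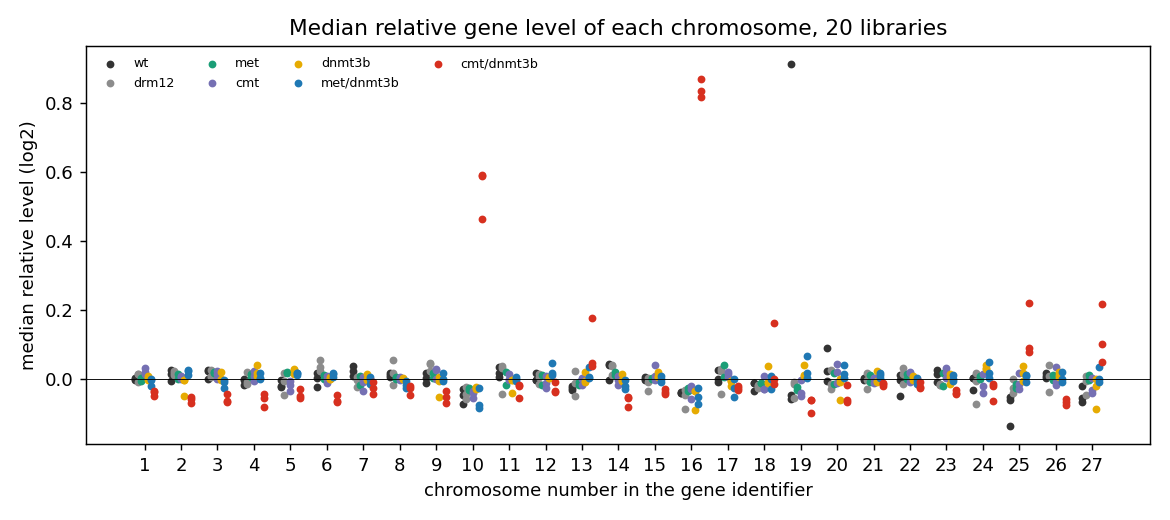
Median relative level (log2, vertical axis) of the genes of each of 27 chromosomes (horizontal axis), with 1 point for each of the 20 libraries, coloured by genotype. The 3 cmt/dnmt3b libraries stand between 0.8172 and 0.8697 on chromosome 16 and between 0.4632 and 0.5914 on chromosome 10, and wt replicate 3 stands at 0.9122 on chromosome 19. To a smaller extent, the cmt/dnmt3b libraries also stand above the rest on chromosomes 25 (0.0801 to 0.2204), 27 (0.0509 to 0.2191) and 13 (0.0388 to 0.1779). Genes of these chromosomes are part of the set outside chromosomes 10, 16 and 19.

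The height of the chromosome was nearly the same against each other genotype. Over the 692 genes, the median factor of cmt/dnmt3b was 1.97 to wt, 1.95 to drm12, 1.86 to met, 1.94 to cmt, 1.94 to dnmt3b and 1.94 to met/dnmt3b. These comparisons share the 3 cmt/dnmt3b libraries. The cmt and dnmt3b single mutants, each with 1 of the mutations of the double mutant, gave factors close to that of wt. In these comparisons each library was centred on genes outside chromosomes 10, 16 and 19. The median log2 difference of those genes, between 0.005 and 0.053, is therefore near 0 by construction.

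Most genes of the chromosome took part. The difference used from here on is the median log2 level of the 3 cmt/dnmt3b libraries minus that of the 17 others, after centring each library on genes outside chromosomes 10, 16 and 19. It was above 0 for 664 of 692 genes (96.0%), with a median of 0.94 (factor 1.92) and quartiles of 0.66 and 1.20. All 3 cmt/dnmt3b libraries exceeded all 17 others for 397 genes (57.4%), where 7.25% of all 16836 genes at this level did so. They lay below all others for 4 genes, where 3.05% of all genes did. Among the 670 genes that reach 2 CPM without the help of cmt/dnmt3b libraries, the median was 0.92 and 380 (56.7%) lay above. Chromosome 10, the nearest case, had a median of 0.67 and 35.9% of 637 genes above all others. Genes outside these chromosomes had a median of 0.026 and 3.87% above.

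The higher level ran from the first window of the chromosome to the last. In 28 windows of 24 or 25 successive genes, the median difference ranged from 0.68 in the last window (Pp3c16_24830 to Pp3c16_26050) to 1.10 in the window from Pp3c16_11760 to Pp3c16_12420. The first window (Pp3c16_80 to Pp3c16_890) stood at 0.74, so that both ends of the chromosome lay in the lower part of the range. The only 2 windows under 0.75 were these ends, but an inner window (Pp3c16_19020 to Pp3c16_19790) stood at 0.751, so the ends were not set apart. In all 28 windows each cmt/dnmt3b library exceeded each of the 17 others. Single window values were 0.64 to 1.18 in cmt/dnmt3b, and -0.38 (cmt replicate 2, window 7) to 0.34 (cmt replicate 1, window 9) elsewhere. Outside chromosomes 10, 16 and 19, 598 windows of the same kind lay between -0.34 and 0.54, so none reached the lowest window of chromosome 16. The 25 windows of chromosome 10 lay between 0.26 and 0.89 and overlapped the range of chromosome 16. In 14 wider windows, of 49 or 50 genes, the range was 0.82 to 1.015. The first of these stood at 0.845, above an inner one at 0.825 (Pp3c16_18930 to Pp3c16_20890).

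**Figure D2:**
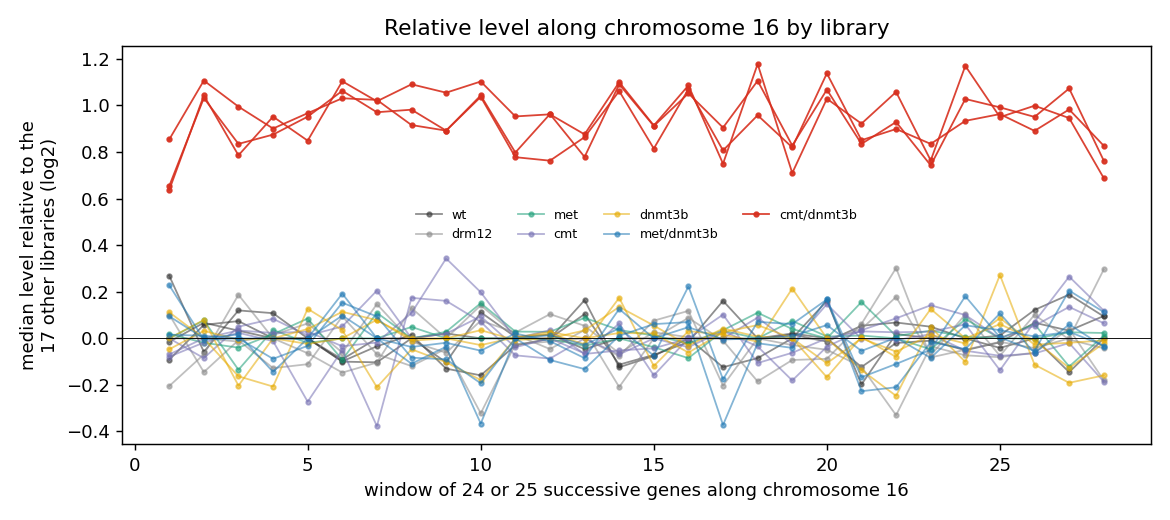
Median level of 28 windows of 24 or 25 successive genes in order along chromosome 16 (horizontal axis), relative to the 17 other libraries (log2, vertical axis), with 1 line for each library. The 3 cmt/dnmt3b lines stay between 0.637 and 1.178 and the other 17 between -0.377 and 0.343.

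The first 3 and last 3 of the 692 genes show the ends in detail. At the first end, Pp3c16_190 stood at 55.02, 52.5 and 50.1 CPM in cmt/dnmt3b and between 24.5 and 41.4 elsewhere (median 30.4). Pp3c16_210 stood at 34.7, 32.5 and 38.1 CPM, against 5.48 to 20.6 (median 13.2). At the last end, Pp3c16_25910 stood at 110.1, 108.6 and 111.9 CPM against 25.4 to 76.0 (median 55.6). For these genes the cmt/dnmt3b libraries did not overlap the rest. The same held for Pp3c16_25920 (23.8 to 25.1 CPM against 7.06 to 21.7), for Pp3c16_26050 (12.0 to 15.3 against 1.17 to 9.56) and for Pp3c16_80, described below. The longest run of successive genes that overlapped the other libraries was 9, from Pp3c16_25500 to Pp3c16_25860, near the last end.

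**Figure D3:**
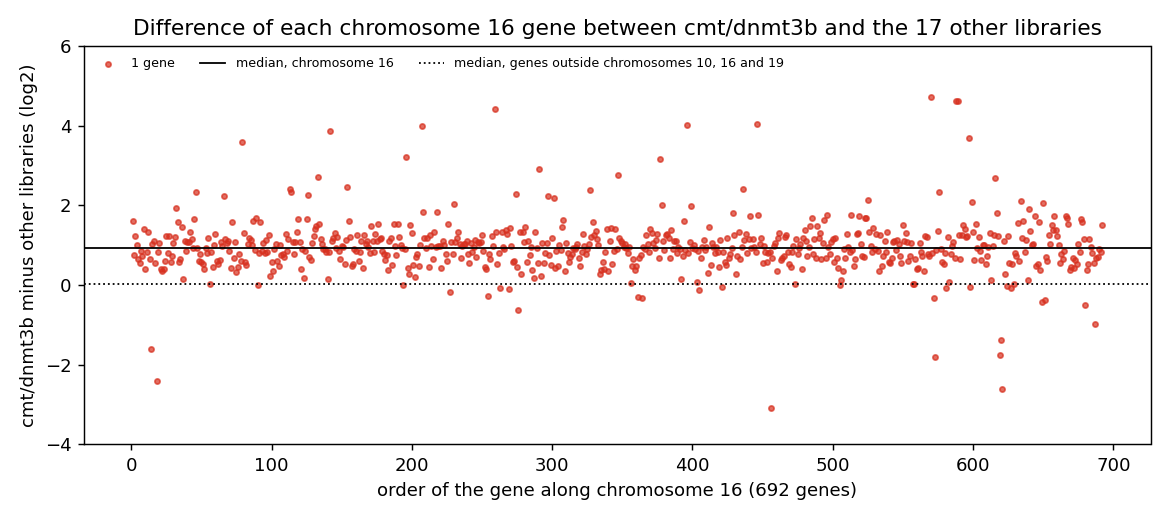
Difference between cmt/dnmt3b and the 17 other libraries (log2, vertical axis) of each of the 692 expressed chromosome 16 genes (mean 2 CPM or more), in order along the chromosome (horizontal axis). Points scatter about the solid line at 0.938 over the whole length, and few reach the dotted line at 0.026, the median of genes outside chromosomes 10, 16 and 19.

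The difference was smaller for genes with more counts, and this gradient was present outside the chromosome too. The mean CPM used for it includes the cmt/dnmt3b libraries, and 22 chromosome 16 genes reach 2 CPM only with them. Higher differences at low levels can thus be partly built in by inclusion, in both sets. In 5 bins of mean CPM, the median difference of chromosome 16 genes was 1.146 (2.05 to 10.4 CPM, 139 genes), 1.10 (to 20.9, 138 genes), 0.95 (to 35.0, 138 genes), 0.83 (to 70.3, 138 genes) and 0.77 (to 1901, 139 genes). Genes outside chromosomes 10, 16 and 19 in the same bins stood at 0.215, 0.117, 0.042, -0.029 and -0.191. The gap between the 2 sets was 0.93, 0.98, 0.91, 0.86 and 0.96, with no steady order. The share of chromosome 16 genes above all other libraries was between 42.5% in the highest bin and 68.1% in the second.

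**Figure D4:**
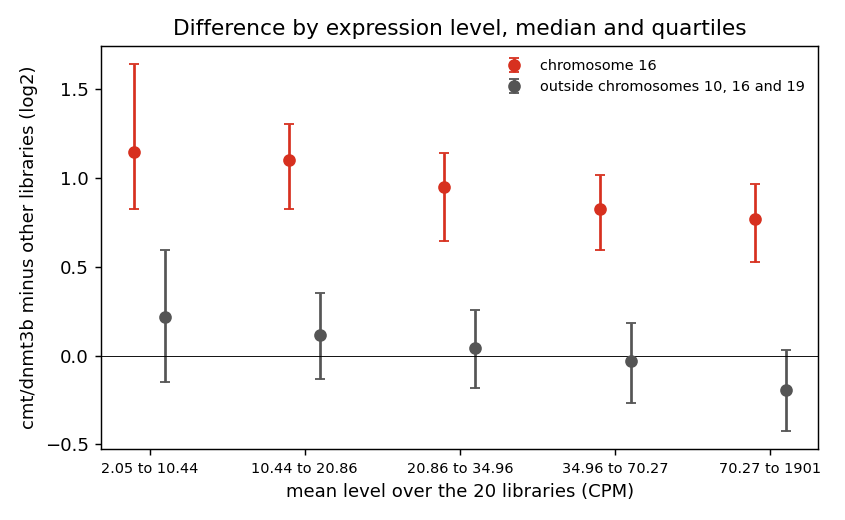
Difference between cmt/dnmt3b and the 17 other libraries (log2, vertical axis) by mean level over the 20 libraries (CPM, horizontal axis), as medians (points) with quartiles (bars), for chromosome 16 (red) and for genes outside chromosomes 10, 16 and 19 (grey). Both sets decline with level, from 1.146 to 0.767 and from 0.215 to -0.191. The mean level includes the cmt/dnmt3b libraries, so part of the decline can come from which genes were included.

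The genes that carry most counts were higher by unequal amounts. The 10 chromosome 16 genes with the highest mean CPM held 23.1% of the summed mean CPM of the chromosome. Pp3c16_23780, first among them, stood at 2817, 2887 and 3444 CPM in cmt/dnmt3b and between 1174 and 2124 elsewhere (median 1753). Pp3c16_16040 stood at 1666, 1675 and 1712 CPM against 711 to 1324, and Pp3c16_19530 at 958, 941 and 928 CPM against 290 to 615. In these 3 genes the groups did not overlap, and the factors were 1.80, 1.79 and 2.40. Factors of single genes here are ratios of mean CPM to the 17 other libraries, without centring. The centred log2 differences of the 3 genes were 0.706, 0.795 and 1.208. By contrast, Pp3c16_21900 stood at 483, 521 and 550 CPM within a range of 217 to 699 elsewhere (factor 1.08). Pp3c16_7980 stood at 1451 to 1619 CPM against 927 to 1628 (factor 1.31). Among the rest of the 10, Pp3c16_5650 and Pp3c16_21700 also overlapped, and Pp3c16_80, described below, did not. Pp3c16_410 and Pp3c16_13180 lay apart in CPM but overlapped after centring. Replicate spread on the log2 scale was like that of other genes: the median SD of the 692 genes was 0.15 in cmt/dnmt3b and 0.298 in wt, against 0.156 and 0.286 outside chromosomes 10, 16 and 19.

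The summed level of weakly expressed genes was higher in cmt/dnmt3b both on the chromosome and outside it. The 542 genes under 2 CPM summed to 62.8, 64.3 and 64.1 CPM in wt and to 209.5, 225.3 and 239.4 CPM in cmt/dnmt3b, 3.53 times the wt mean. The sum for the 13554 genes under 2 CPM outside chromosomes 10, 16 and 19 was 2.22 times that of wt in cmt/dnmt3b. In the other mutants the sum on chromosome 16 was 1.26 times that of wt in drm12, 1.29 in met, 1.29 in cmt, 1.247 in dnmt3b and 1.53 in met/dnmt3b. The ratios outside were 1.23, 1.18, 1.29, 1.23 and 1.504 in the same order. In drm12, replicate 3 reached 98.0 CPM, while the other 2 lay at 73.3 and 69.3.

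Between 829 and 862 chromosome 16 genes had a count in the wt libraries, against 903 to 924 in met/dnmt3b and 913 to 943 in cmt/dnmt3b. Of the 118 genes at 0 in all 3 wt libraries and detected elsewhere, 29 (24.6%) had a count in every cmt/dnmt3b library, where 14.3% of the 2959 such genes of the whole table did. The number was 15 (12.7%, all genes 10.3%) for met/dnmt3b, 13 (11%, all genes 6.29%) for met, where 2 libraries suffice, and 8 (6.78%, all genes 5.37%) for cmt. It was 4 (3.39%, all genes 3.68%) for dnmt3b and 2 (1.69%, all genes 1.82%) for drm12.

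Some genes were higher in cmt/dnmt3b by far more than the chromosome. The 8 largest differences, from 3.86 to 4.72, belonged to genes near the detection limit in wt. Of these 8, 7 are among the 22 genes that reached 2 CPM only with the cmt/dnmt3b libraries, and the exception is Pp3c16_20660, so a large difference was built into their inclusion. Pp3c16_19740 stood at 18.3, 14.6 and 22.8 CPM in cmt/dnmt3b, at 2.74, 2.43 and 2.47 in met/dnmt3b, and at 0.616 or less in the 14 remaining libraries. Pp3c16_16200 stood at 10.3, 12.9 and 14.9 CPM in cmt/dnmt3b and at 1.21 or less elsewhere. Pp3c16_14010 stood at 9.70, 11.4 and 16.3 CPM against at most 0.969. With 3 counts in wt and 631 in cmt/dnmt3b, its pooled ratio was 194, a description of a gene chosen for this difference. Pp3c16_7540 had 14.3 to 15.5 CPM against at most 2.81, in cmt replicate 3. Pp3c16_5450 had 10.2 to 14.5 CPM against at most 1.14. Among their next expressed neighbours, those of Pp3c16_19740 had differences of 0.73 and 0.79, while Pp3c16_7610, beside Pp3c16_7540, stood at 1.84 and Pp3c16_16220, beside Pp3c16_16200, at 1.76, above the upper quartile of the chromosome (1.20).

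Pp3c16_20540 and Pp3c16_20660, successive expressed genes, had nearly the same pattern across genotypes. Pp3c16_20540 stood at 15.6, 15.3 and 16.2 CPM in cmt/dnmt3b, at 2.29, 2.61 and 2.81 in cmt, and at 4.67, 6.71 and 4.04 in met/dnmt3b. It did not exceed 0.418 in wt, drm12, met or dnmt3b. Pp3c16_20660 stood at 26.6, 20.2 and 29.2 CPM in cmt/dnmt3b, at 5.01, 5.83 and 5.21 in cmt and at 6.21, 6.76 and 5.85 in met/dnmt3b, and at most at 1.20 in the rest. Against wt, edgeR's quasi-likelihood test called Pp3c16_20660 higher in cmt (log2 fold change 4.12 ± 0.60 SE, adjusted p = 0.000227) and in met/dnmt3b (4.57 ± 0.62, adjusted p = 9.38e-05). It also called Pp3c16_20540 in cmt (3.28 ± 0.60, adjusted p = 0.00223) and in met/dnmt3b (4.47 ± 0.63, adjusted p = 0.00016). In dnmt3b neither passed (adjusted p = 0.198 and 0.916 for Pp3c16_20540 and Pp3c16_20660). Both were thus high in cmt without the loss of DNMT3b. Their level in cmt/dnmt3b was above that in cmt in every library, but both genes were chosen among the 8 largest differences of cmt/dnmt3b.

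A few genes were lower in cmt/dnmt3b while the chromosome around them was higher. Pp3c16_16420 stood at 1.28, 1.19 and 0.941 CPM in cmt/dnmt3b, at 43.6, 116.3 and 25.9 in wt, and at no less than 2.60 in any other library. Its expressed neighbours had differences of 0.82 and 0.67, against -3.10 for the gene itself. It also fell in cmt, to 13.3, 11.4 and 3.37 CPM (log2 fold change -2.92 ± 0.49, edgeR adjusted p = 0.000868). In met/dnmt3b it fell to 6.34, 2.60 and 13.0 CPM (-3.57 ± 0.52, adjusted p = 0.000163).

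Pp3c16_22291, Pp3c16_22301 and Pp3c16_22330, successive expressed genes near the last end, formed the only adjacent set among the 8 lowest differences. Pp3c16_22330 stood at 51.2, 36.4 and 57.2 CPM in cmt/dnmt3b, at 544, 439 and 264 in wt and at 198, 187 and 58.4 in cmt, so cmt replicate 3 came close to the double mutant. Pp3c16_22291 stood at 7.61, 7.42 and 7.94 CPM in cmt/dnmt3b, at 37.4, 20.9 and 25.6 in wt and at 15.7, 19.9 and 7.24 in cmt. Pp3c16_22301 had 5.11 to 7.46 CPM in cmt/dnmt3b and 12.2 to 21.3 in wt. In cmt it stood at 13.45, 17.5 and 4.10 CPM, so cmt replicate 3 lay below every library of the double mutant. It was not called in cmt (edgeR adjusted p = 0.164). By edgeR, Pp3c16_22330 fell in cmt (log2 fold change -1.72 ± 0.24, adjusted p = 0.000165) and Pp3c16_22291 did too (-1.17 ± 0.23, adjusted p = 0.00387). Both were also called lower in met/dnmt3b, Pp3c16_22330 at -0.998 ± 0.25 (edgeR adjusted p = 0.00741) and Pp3c16_22291 at -1.09 ± 0.24 (0.00375). Pp3c16_22330 stood at 267, 218 and 318 CPM there, overlapping wt. Without the batch term both met/dnmt3b calls were lost (edgeR adjusted p = 0.229 and 0.0772). The gene before the adjacent set, Pp3c16_22280, had a difference of 1.24, and the one after, Pp3c16_22390, of 1.10. In batch 1 alone, the call of Pp3c16_22291 in cmt was lost (adjusted p = 0.0994).

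The remaining genes of the lowest 8 were Pp3c16_19830 (4.27 to 6.53 CPM in cmt/dnmt3b, 10.6 to 29.0 elsewhere), Pp3c16_550, Pp3c16_630 and Pp3c16_25860. Pp3c16_550 was uneven in wt, at 70.6, 538 and 57.0 CPM, and stood at 20.2 to 23.2 in cmt/dnmt3b, below the lowest other library (35.4). Pp3c16_630 was as uneven, at 616, 783 and 49.1 CPM in wt, and overlapped other libraries.

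Set against wt by edgeR, with genotype and batch as terms and p-values adjusted over all 26751 genes and transposable elements tested, 824 chromosome 16 genes were tested. In cmt/dnmt3b 398 were called higher and 8 lower, 49.3% of those tested, where 19.3% of all genes tested were called (11.3% higher and 8.03% lower). Since the chromosome was chosen for this contrast, nothing is read from that count. Without wt replicate 3 it was 144, and with normalisation over genes and transposable elements together 311 (301 higher). In the other mutants the median log2 fold change of the 824 was near that of all genes: 0.0329 (all genes 0.0325) for drm12, 0.0477 (0.0352) for met, 0.0089 (0.0158) for cmt, 0.0068 (0.0076) for dnmt3b and -0.0017 (-0.0164) for met/dnmt3b.

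In drm12, 0 chromosome 16 genes passed by edgeR, and 0.0149% of all genes did. The background was 0.00496% for rises and 0.00993% for falls. At an unadjusted p under 0.05 there were 24 chromosome 16 genes, and DESeq2 also called 0. Without drm12 replicate 3 there was 1, lower in the mutant.

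In met, 5 genes of the chromosome rose and 2 fell by edgeR (0.85% of 824, against 0.63% of all genes), a combined share near the background. The 5 rises were 0.607% of those tested, against 0.243% of all genes, and the 2 falls 0.243%, against 0.387%. The clearest was Pp3c16_18789, at 0 counts in wt, drm12 and dnmt3b replicates 1 and 2 and at 7.70 and 5.86 CPM in met (edgeR adjusted p = 0.00454). That is at least 106-fold higher, with 3 counts over the 3 wt libraries as the floor. It was at 5.41, 4.98 and 6.03 CPM in met/dnmt3b, at least 85.5-fold higher (adjusted p = 0.000328), and at 0.28 or less in every library without the met mutation. In cmt/dnmt3b it had 0, 0.28 and 0.0588 CPM, with no rise beside the chromosome. The other rises included Pp3c16_17910, from 0.69, 0.837 and 2.46 CPM in wt to 5.71 and 2.63 in met (edgeR adjusted p = 0.029). The falls were Pp3c16_5590, from 57.2, 100.6 and 42.0 to 38.2 and 17.1 CPM (edgeR adjusted p = 0.0464), and Pp3c16_23390, from 104, 59.9 and 26.4 to 18.2 and 28.6 CPM (adjusted p = 0.0464).

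The met count moved with single libraries: it was 1 without wt replicate 1, 0 without wt replicate 2, 11 without wt replicate 3 and 3 without met replicate 1. Within batch 1 it was 48 (18 rises and 30 falls), and by DESeq2 24. With normalisation over genes and transposable elements together, 5 rises and 0 falls were left. Without wt replicate 2, Pp3c16_18789 had an edgeR adjusted p of 0.0518. Pp3c16_17910 was lost without met replicate 1 (0.279) or any 1 wt library (0.0722 to 0.0815), and Pp3c16_5590 without met replicate 2 (0.231), wt replicate 1 (0.0523) or wt replicate 2 (0.237).

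In cmt, 24 genes of the chromosome rose and 16 fell (4.85%, against 5.21% of all genes, 3.09% rising and 2.12% falling). Genes that rose had a median of 0.406 CPM in wt, and 13 of the 24 were under 0.5 CPM there. The share of such genes among all genes called was not computed. Genes that fell had a median of 25.9 CPM in wt, and 0 were under 0.5, since a fall can be called only from a measurable level. Pp3c16_20660, Pp3c16_20540, Pp3c16_16420 and Pp3c16_22330 above were among them. Pp3c16_9010 had 1 count in the 3 wt libraries and 38 in cmt, a pooled ratio of 31.7 (95% counting interval 5.35 to 1283). Its levels were 0.362, 0.50 and 1.06 CPM in cmt (edgeR adjusted p = 0.00471), 0.668, 0.811 and 1.08 CPM in met/dnmt3b (adjusted p = 0.000335) and 13.0, 15.9 and 12.3 CPM in cmt/dnmt3b. The dnmt3b libraries had at most 0.114 CPM of it. Pp3c16_17390 fell from 3.39, 3.11 and 0.211 CPM in wt to 0.422, 0.222 and 0.0922 in cmt (log2 fold change -3.09 ± 0.57, edgeR adjusted p = 0.00217), and wt replicate 3 lay within the cmt range.

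Pp3c16_19330 and Pp3c16_23320, at 0 counts in wt, rose in cmt at least 7.55-fold and 5.92-fold over 3 counts (edgeR adjusted p = 0.0263 and 0.034). Neither call held without wt replicate 1, 2 or 3 or without cmt replicate 3 (adjusted p between 0.0546 and 0.235). The first was also lost without cmt replicate 2 (0.0502) and the second without cmt replicate 1 (0.0726). Pp3c16_9010 lost its call in cmt without wt replicate 3 (adjusted p = 0.101) and within batch 1 (0.089). The count of 40 became 19 without cmt replicate 1, 24 without cmt replicate 2, 25 without wt replicate 2 and 24 without wt replicate 3, and it was 34 within batch 1.

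In dnmt3b, 4 genes of the chromosome rose and 9 fell (1.58%, against 1.49% of all genes, 0.442% rising and 1.05% falling). The 9 falls started from a median of 33.1 CPM in wt. Pp3c16_23620 showed the largest fall, from 48.6, 55.5 and 15.05 CPM in wt to 0.457, 0.0508 and 0.299 in dnmt3b (log2 fold change -6.27 ± 1.11, edgeR adjusted p = 0.0107). It stood at 18.4 to 34.9 CPM in met/dnmt3b and at 29.8 to 45.3 CPM in cmt/dnmt3b, both of which lack DNMT3b as well. Its level was 1.75 CPM in cmt replicate 3, against 46.3 and 61.2 in the other 2 cmt libraries, which came from batch 1, while drm12 replicate 3, also of batch 2, had 94.1 CPM. Pp3c16_10020 fell from 10.9, 21.0 and 1.97 CPM to 1.03, 0.66 and 0.898 (edgeR adjusted p = 0.0386).

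All of dnmt3b came from batch 2, which holds 1 wt library, and the calls moved with single libraries. The count of 13 was 1 without dnmt3b replicate 1, 7 without dnmt3b replicate 2, 2 without dnmt3b replicate 3 and 8 without wt replicate 2. Within batch 2 it was 25 (7 rises and 18 falls). Pp3c16_23620 had edgeR adjusted p = 0.0526 without dnmt3b replicate 1 and 0.0568 without dnmt3b replicate 3. Pp3c16_10020 was lost without any 1 dnmt3b library or without wt replicate 2 (adjusted p between 0.0794 and 0.12). Within batch 2 its log2 fold change was -1.21 (from -2.76) and the call was lost (adjusted p = 0.199).

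With MET and DNMT3b both mutated, the share of chromosome 16 genes called was near the background. The chromosome median lay with those of genotypes other than cmt/dnmt3b. By edgeR, in met/dnmt3b 49 rose and 39 fell (10.7%, against 9.73% of all genes, 5.62% rising and 4.11% falling). Of the rises, 23 were under 0.5 CPM in wt and 6 had no wt count. In 4 successive parts of the chromosome, the rises numbered 10, 9, 8 and 22, of 195, 211, 206 and 212 genes tested. No such split was made over all genes, so the numbers by wt level and by part have no background. The median absolute log2 fold change was 2.47 among rises and 0.96 among falls. Pp3c16_20960, at 0 counts in wt, had 0.935, 1.03 and 0.362 CPM, at least 12.1-fold higher (edgeR adjusted p = 0.0086). Pp3c16_26095, the last identifier of the chromosome, was at 0 in every library without the met mutation. It had 0.361 and 0.86 CPM in met and 0.468, 0.865 and 0.422 CPM in met/dnmt3b (edgeR adjusted p = 0.0138).

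The met/dnmt3b count of 88 was 52 without met/dnmt3b replicate 1, 53 without wt replicate 1 and 91 within batch 1. Pp3c16_26095 was not called without wt replicate 1 (edgeR adjusted p = 0.0701), without wt replicate 2 (0.0533) or by DESeq2 (0.282).

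Over the 5 comparisons of drm12, met, cmt, dnmt3b and met/dnmt3b with wt, which share the wt libraries, 116 of the 824 genes (14.1%) were called in at least 1, and 14.1% of all 20149 genes tested were. There were 91 called in 1, 20 in 2, 3 in 3 and 2 in 4. The 5 called in 3 or more were 0.607% of those tested, against 0.377% of all genes. They are given next for their levels by library. Pp3c16_21250 stood at 6.65, 9.09 and 13.3 CPM in wt and at 94.5, 76.6 and 106.5 in cmt. It had 88.1, 59.0 and 67.4 CPM in dnmt3b and 52.0, 48.7 and 40.7 CPM in met/dnmt3b. In met it was at 47.6 and 21.9 CPM, and in cmt/dnmt3b at 207.5, 244.9 and 204.6. All libraries of these mutants lay above all wt libraries. Its log2 fold change over wt was 3.16 ± 0.35 for cmt (edgeR adjusted p = 1.39e-05), 2.49 ± 0.40 for dnmt3b (0.00586), 2.43 ± 0.36 for met/dnmt3b (0.000184) and 1.87 ± 0.38 for met (0.0214). The call in met was lost without met replicate 1 (adjusted p = 0.298), wt replicate 1 (0.0905) or wt replicate 2 (0.0792).

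Pp3c16_7110 was nearly silent in wt, at 0.0628, 0.12 and 0.281 CPM. It reached 9.35, 13.7 and 7.41 CPM in met/dnmt3b, 7.59, 5.79 and 5.57 CPM in dnmt3b and 7.71, 14.9 and 15.6 CPM in cmt/dnmt3b. Its rise in met/dnmt3b had a log2 fold change of 7.82 ± 0.73 (edgeR adjusted p = 1.69e-06), and in dnmt3b 3.64 ± 0.78 (0.0318). Its batch 2 libraries were high in other genotypes as well, with 4.85 CPM in drm12 replicate 3 against 0.123 and 0.11 in batch 1, and 2.58 CPM in cmt replicate 3 against 0.362 and 0.445. Within batch 2, where wt is 1 library, the dnmt3b call held (log2 fold change 4.45, edgeR adjusted p = 0.00686). Within batch 1, which holds all met/dnmt3b libraries, the met/dnmt3b log2 fold change was 6.59 (edgeR adjusted p = 0.000174). The calls in met and cmt were lost there (adjusted p = 0.0552 and 0.223). Its calls in met (0.0341), cmt (0.0433) and dnmt3b were lost without wt replicate 3, where the edgeR adjusted p was 0.168, 0.633 and 0.38. They were also lost without wt replicate 1 in met and cmt (0.0651 and 0.0716), without wt replicate 2 or met replicate 1 in met (0.058 and 0.325), and without cmt replicate 1 or 2 in cmt (0.0908 and 0.111). In dnmt3b, the call was lost without replicate 1 (0.0996) or 3 (0.0578), and without replicate 2 the value lay at the threshold (0.05, not passed). Blocked by replicate number, the cmt call had an adjusted p of 0.072.

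Pp3c16_80, the first expressed gene of the chromosome at 2 CPM or more, was also among its 10 highest. It stood at 221, 117 and 376 CPM in wt, 602, 627 and 797 CPM in cmt, 923, 804 and 746 CPM in dnmt3b and 1412, 1283 and 1359 CPM in met/dnmt3b. In cmt/dnmt3b it had 1922, 1756 and 2244 CPM. No library of cmt, dnmt3b or either double mutant overlapped wt. The log2 fold change was 2.79 ± 0.25 in met/dnmt3b (edgeR adjusted p = 1.16e-06), 1.49 ± 0.23 in cmt (0.000331) and 1.36 ± 0.26 in dnmt3b (0.0163). Without dnmt3b replicate 1 the last had an adjusted p of 0.0775.

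Pp3c16_23100 fell in dnmt3b, from 78.7, 26.9 and 3.02 CPM in wt to 0.514, 0.711 and 0.599 CPM (log2 fold change -3.84 ± 0.72, edgeR adjusted p = 0.0159). It also fell in met/dnmt3b, to 4.34, 5.46 and 2.83 CPM (-3.35 ± 0.55, adjusted p = 0.000488), and in cmt, to 5.31, 8.73 and 3.74 CPM (-2.11 ± 0.56, adjusted p = 0.0269). Its batch 2 libraries of wt and drm12 were low too, at 3.02 and 5.16 CPM, so wt replicate 3 overlapped met/dnmt3b and lay below every cmt library. In batch 2, cmt (3.74 CPM) was thus not lower than wt (3.02), and the cmt call held within batch 1 (log2 fold change -3.01, edgeR adjusted p = 0.00996). The dnmt3b call was lost without dnmt3b replicate 1 (adjusted p = 0.0833) or 3 (0.0578), and the cmt call without cmt replicate 1 (0.171), cmt replicate 2 (0.138) or wt replicate 1 (0.153). Pp3c16_23390 was called lower in met, dnmt3b and met/dnmt3b. It stood at 7.48, 7.16 and 4.91 CPM in dnmt3b (edgeR adjusted p = 0.0142). Its dnmt3b call was lost without dnmt3b replicate 1 (0.0511) or 3 (0.0587). The met call was lost without any 1 of the met libraries, wt replicate 1 or wt replicate 2 (0.0682 to 0.325). The met/dnmt3b call, at an adjusted p of 0.044, was lost without any 1 library other than wt replicate 3 (0.0566 to 0.278).

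**Figure D5:**
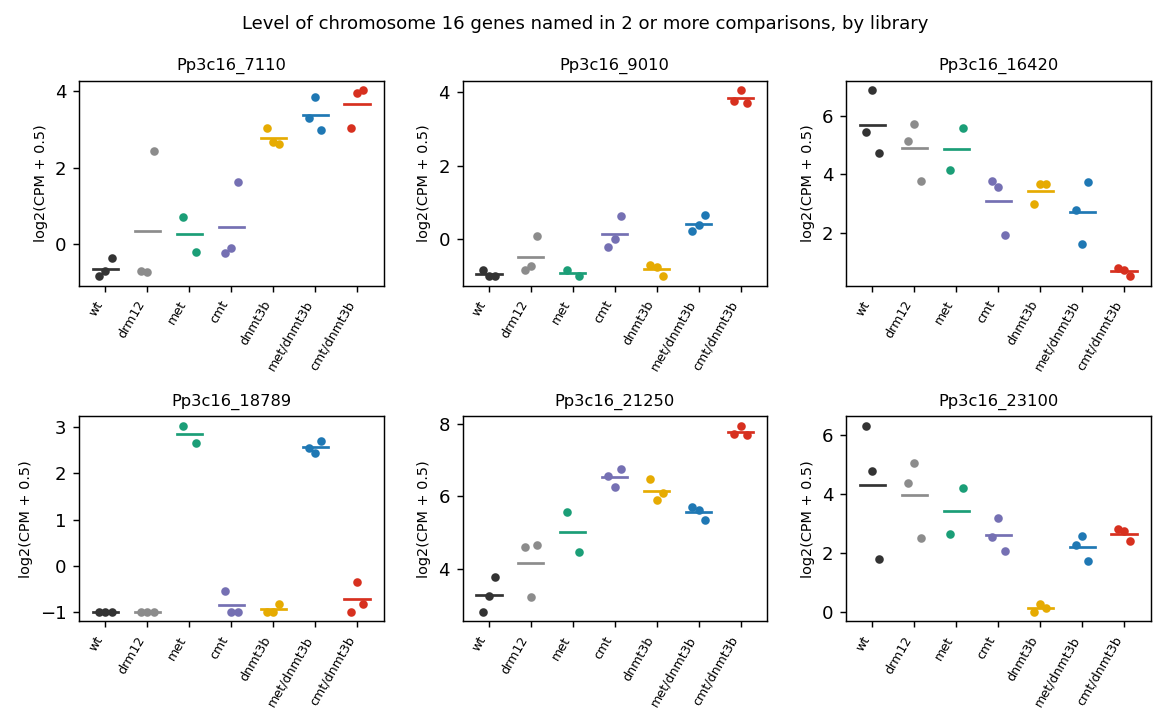
Level in each library (log2 of CPM plus 0.5, vertical axes) of 6 chromosome 16 genes named in 2 or more comparisons, by genotype (horizontal axes), with a line at the mean. Pp3c16_18789 is high in the 2 met and 3 met/dnmt3b libraries, Pp3c16_16420 is lowest in cmt/dnmt3b, and Pp3c16_21250 is above wt in met, cmt, dnmt3b and both double mutants.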

How the data were processed

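The values are raw counts as the authors deposited them, in 1 table with 20 columns, 31967 gene rows and 241351 transposable element rows. The submitters' processing notes list STAR 2.7.0f, cutadapt 1.15 and Trim Galore 0.6.0 without saying what each did. The sources used here do not state counting, strand, multi-mapping, build or annotation, so genes with close copies, overlaps or antisense partners are uncertain.

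CPM divides by the summed gene counts of the library. Tests were edgeR 4.0.16 quasi-likelihood fits in R 4.3.3 on the deposited counts, all 20 libraries together, terms genotype and batch, TMM factors from gene rows, and edgeR's filter (minimum count 10, minimum total 15). Benjamini-Hochberg adjustment ran over 26751 features, threshold 0.05. The scripts were tested on simulated data. Replicate pairs differed by a chi-square per degree of freedom of 7.39 to 166 over 19 pairs, so all were kept as separate. Counting intervals cover counting error only. Bounds against a group at 0 use 3 counts over the group.

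The members and lists were chosen with earlier results of these data known. Named genes are the 10 with the highest mean CPM, the 8 highest and 8 lowest differences, the first 3 and last 3 with a mean of at least 2 CPM, and up to 4 rises and 4 falls per mutant by fold change. Genes called in at least 3 comparisons were added after their values were seen. The product groups planned could not be used, since 0 of the identifiers matched the reference table given. Deviations of same-numbered wt and cmt libraries correlated (0.287, 0.265 and 0.421 for replicates 1 to 3). The deviations were not adjusted for batch. In both genotypes replicates 1 and 2 are of batch 1 and replicate 3 is of batch 2. The correlations therefore cannot decide whether the numbers mark pairs, and the main fit used no pairing. Alternatives were DESeq2 1.42.0, other scalings and filters, no batch term, 1 batch, a replicate block, and each library left out.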

Additional observations from a re-analysis of the deposited data

How the results depend on the processing

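Counts of called chromosome 16 genes rested on few libraries per genotype. With no low-count filter, drm12 gave 7, met 49, cmt 65 and dnmt3b 72. DESeq2 gave 24 in met and 46 in dnmt3b. Without the batch term, met gave 2, dnmt3b 64 and met/dnmt3b 55. Within 1 batch, met gave 48 and dnmt3b 25. Leaving out 1 library at a time gave 0 to 1 in drm12, 0 to 11 in met, 19 to 54 in cmt, 1 to 12 in dnmt3b, 52 to 81 in met/dnmt3b and 144 to 365 in cmt/dnmt3b. With the replicate number as a block, met gave 3 and dnmt3b 1. Outside cmt, deviations of same-numbered libraries correlated with those of wt at -0.437 to 0.117. The block gave 32 in cmt and moved no other count by over 1.5 times. Whether the numbers mark pairs is not known for any genotype. Without wt replicate 3, which stands apart on chromosome 19, the counts were 0 in drm12, 11 in met, 24 in cmt, 12 in dnmt3b, 60 in met/dnmt3b and 144 in cmt/dnmt3b.

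The median relative level of cmt/dnmt3b was 0.812 with a minimum of 0.5 CPM, 0.791 with a pseudocount of 2, 0.871 centred on genes outside chromosomes 10, 16 and 19, 0.869 centred on wt, 0.766 in batch 2 and 0.85 to 0.872 without 1 library. For wt the same settings gave -0.037, -0.035, -0.043, 0.0, -0.145 and -0.048 to -0.047. Centring on wt gave -0.007 in drm12, 0.005 in met, -0.012 in dnmt3b and 0.022 in met/dnmt3b. Batch 2 alone gave -0.147 in dnmt3b and -0.071 in cmt, and dnmt3b without 1 library -0.061 to -0.019. Of 881 fold changes for 64 pairs of a named gene and a comparison, 722 kept their call, 159 lost it and 0 changed sign. The causes were not tested. Levels under about 1 CPM rest on few counts.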
